A study of Mus musculus with 3 samples.

Results

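The polyamine synthesis and antizyme genes are 9 listed genes, Odc1, Oaz1, Oaz2, Azin1, Amd1, Srm, Sms, Sat1 and Smox, out of 32285 genes in the deposited count matrices. They were chosen by symbol, from the enzymes that make and break down polyamines and the proteins that control ornithine decarboxylase, and each symbol matched 1 gene. E14 mouse embryonic stem cells (129/Ola background) were grown in serum with LIF and treated 24 h after seeding. The groups were 250 µg/mL cycloheximide in 0.007% ethanol for 3 h, the same treatment for 6 h, and ethanol alone for 6 h as the control, so the control matches the longer treatment in time and no ethanol-only 3 h group is among them. Cycloheximide blocks elongation by the ribosome, and the series asked what this block does to the transcriptome of single cells. Cells were trypsinised, frozen and thawed before 3′ droplet sequencing, and every group was 1 library.

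Polyamines are small cations that bind RNA and support translation and growth. Ornithine decarboxylase makes putrescine, and spermidine synthase and spermine synthase each add an aminopropyl group taken from decarboxylated S-adenosylmethionine. Antizymes bind ornithine decarboxylase and send it to the proteasome, and a full-length antizyme is made only when the ribosome shifts frame on its transcript, which polyamines promote. Antizyme inhibitor, a relative of the decarboxylase without its activity, holds antizymes away from the enzyme.

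The frameshift sites of the 2 antizyme genes are shown because they are where a ribosome decides between a truncated and a full-length antizyme, a step that transcript counts do not see. Both runs are 5′ to 3′ on the plus strand of GRCm38, at chr10:80828280-80828309 for Oaz1 and chr9:65686257-65686286 for Oaz2, in the coding sequence, and the capitals mark the stop codon of the first frame.
Oaz1 frameshift site: cctcggtggtgctccTGAtgtccctcaccc
Oaz2 frameshift site: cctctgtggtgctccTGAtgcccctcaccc
The annotation skips the T of this stop codon in both genes. The first frame of Oaz1 held 68 codons before the stop, against 227 codons with the skipped base, and the first frame of Oaz2 held 32 against 189. The coding sequences of Oaz1 and Oaz2 were 57.5% identical over all alignment columns, gaps included, and those of Odc1 and Azin1 were 61.7% identical.

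The start of an alternative Sat1 exon is shown because the transcript that carries it is annotated as a target of nonsense-mediated decay, a pathway that needs translation. The exon spans 110 bases at chrX:155215121-155215230, on the minus strand of GRCm38. Its first 30 bases, chrX:155215201-155215230, are given in the direction of the transcript, with the in-frame stop codon in capitals.
Sat1 alternative exon: gttacagtctcTAGcttcgccatgtacatg
The stop follows 11 coding bases of the exon. At least 1 transcript annotated for nonsense-mediated decay was listed for 5 of the 9 genes, Odc1, Azin1, Sms, Sat1 and Smox. Of these, Smox is under 10 CPM (counts scaled to a fixed library total). Such a transcript was listed for 32.1% of 7492 protein-coding genes at or above 10 CPM. The 3′ tags do not separate these forms from the others, so every value here is a sum over a gene's transcripts.

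Levels were read as unique molecular identifiers (UMIs) summed over barcodes with at least 15000 UMIs and 1 to 20% mitochondrial UMIs, as CPM of the summed UMIs. This kept 2187, 1739 and 2554 barcodes in the control, 3 h and 6 h libraries, with 106842407 to 140321458 UMIs each, medians of 43160 to 51726 UMIs per barcode and 2.94 to 4.57% mitochondrial UMIs. The control lost 62 barcodes to the lower mitochondrial limit, against 1 at 3 h and 8 at 6 h, and at most 3 kept barcodes were shared between any pair of libraries. All 8 embryonic stem cell markers examined were at or above 10 CPM in every library, and their sum was 7067, 7980 and 7170 CPM. The 6 fibroblast markers summed to 1.28 to 2.48 CPM, with Col3a1, Lum and Postn at 0. In the control, 3 h and 6 h libraries the 4 endoderm markers summed to 5.29, 7.35 and 7.41 CPM, the 3 mesoderm markers to 1.48, 2.83 and 4.90 CPM and the 3 neural markers to 9.42, 14.5 and 9.77 CPM, with 1 neural marker above 10 CPM at 3 h; none of these 10 was at 0, and their part in the results was not tested. Conditions could not be tested against each other, since each had a single library, and all intervals (95%, exact) cover counting error only, not variation between cultures.

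The 2 transcripts at the centre of the pathway, for ornithine decarboxylase and its antizyme, changed little in share, while spermine synthase transcript was lower and the transcripts of antizyme 2, antizyme inhibitor, S-adenosylmethionine decarboxylase and the acetylase SAT1 were higher in both treated libraries. A higher share was common: 64.1% of the 7608 genes at or above 10 CPM exceeded their control level at each time. Oaz2, Azin1, Amd1 and Sat1 lay at or above 67.2% to 78.9% of these genes after 3 h and 65.4% to 76.2% after 6 h. Sms went from 171 CPM in control cells to 129 CPM after 3 h and 106 CPM after 6 h. Of the 9 genes Sms alone passed 1.5-fold, as lower at 6 h against the control, where 7.79% of 7608 genes did so. The ratios at 3 h and 6 h share the control library and are given side by side, not as repeats of each other.

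**Figure D1:**
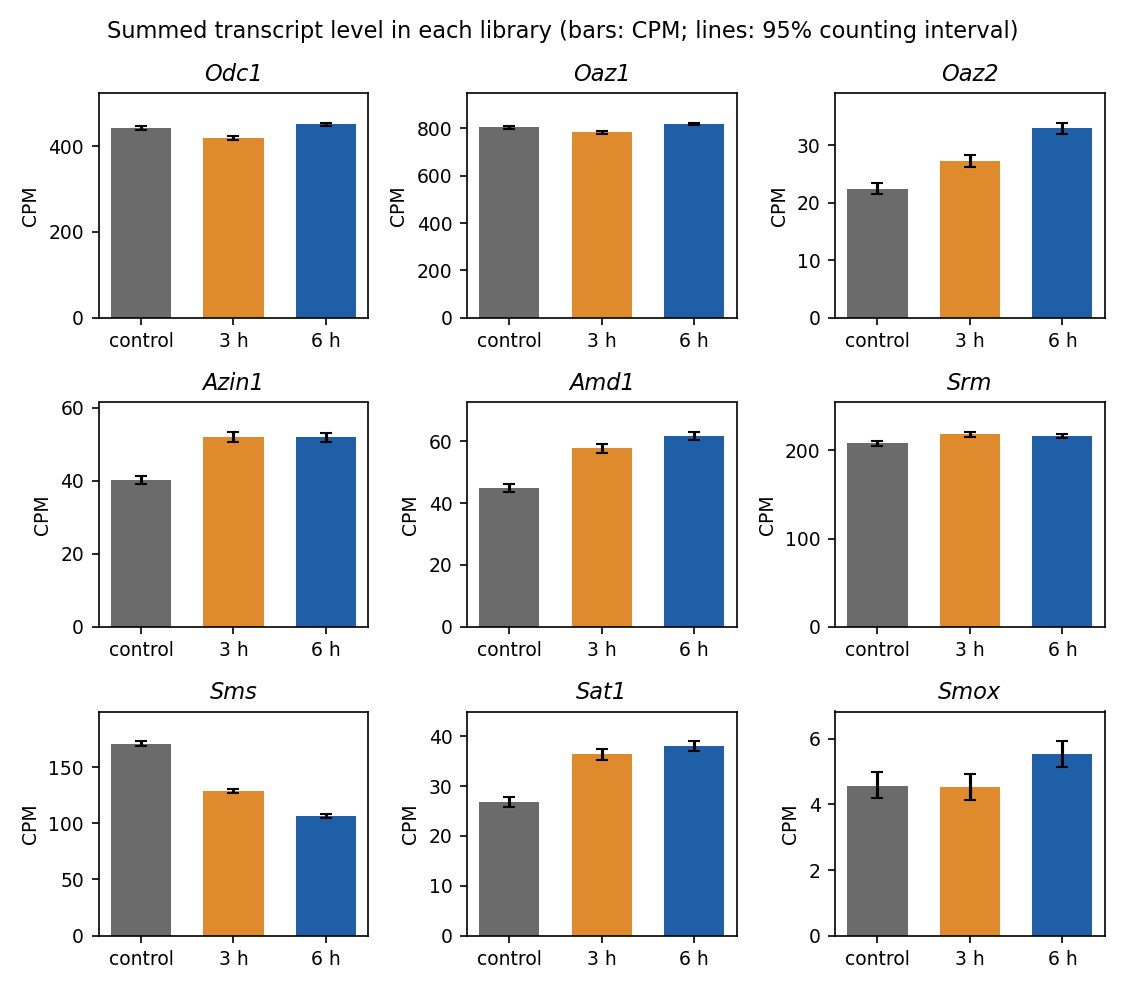
Level of each of the 9 genes in the control, 3 h and 6 h libraries, in CPM on an axis from 0 (bars) with 95% exact Poisson intervals (lines). Sms steps down from 171 to 106 CPM, Oaz2, Azin1, Amd1 and Sat1 are higher in both treated libraries, and Odc1, Oaz1 and Srm stay near their control level on this scale.

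Odc1, on chromosome 12 (17544794 to 17551505, plus strand), encodes ornithine decarboxylase, the first and rate-limiting enzyme. It was read at 442, 419 and 451 CPM in the control, 3 h and 6 h libraries. The log2 ratio to the control was -0.08 (-0.10 to -0.06) at 3 h and 0.03 (0.01 to 0.04) at 6 h. The 3 libraries thus lay within a narrow band, below the control at 3 h and just above it at 6 h. These signs depend on the scaling: with TMM factors (trimmed mean of M-values) the ratios were -0.25 and -0.26, and per kept barcode they were 0.19 and 0.14.

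Oaz1 (chromosome 10, 80826656 to 80829290, plus strand), the main antizyme gene, followed the same course at 804, 784 and 819 CPM. Its log2 ratios to the control were -0.04 at 3 h and 0.03 at 6 h, and -0.21 and -0.26 with TMM factors. A ratio of 2 genes in 1 library does not depend on scaling, so the decarboxylase transcript was also set against its antizyme. Odc1 UMIs per 100 Oaz1 UMIs numbered 55.0 in control cells, 53.5 after 3 h and 55.1 after 6 h. The log2 change of this ratio at 6 h was 0.001, with an interval of -0.02 to 0.02, so the 2 transcripts stood in the same ratio after 6 h as in the control, within that interval.

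The other members of the antizyme system differed more. Oaz2 (chromosome 9, 65668001 to 65690300, plus strand) encodes a second antizyme. It had 2500, 2910 and 4617 UMIs, or 22.4, 27.2 and 32.9 CPM, in the control, 3 h and 6 h libraries. Its ratio was 1.21-fold at 3 h and 1.47-fold at 6 h (log2 0.55, 0.48 to 0.62), just short of 1.5-fold. With TMM factors the log2 ratios to the control were lower, 0.105 at 3 h and 0.271 at 6 h. Per kept barcode they were 0.550 and 0.661. The 3 levels were ordered control, 3 h, 6 h. Per 100 Oaz1 UMIs there were 2.79, 3.48 and 4.02 Oaz2 UMIs.

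Azin1 (chromosome 15, 38487427 to 38519266, minus strand) encodes the antizyme inhibitor. Its level was 40.2, 52.0 and 51.9 CPM, in the same order. The ratio to the control was 1.29-fold at both times, and the log2 ratio of 6 h to 3 h was -0.004 (-0.05 to 0.05). On the CPM scale the higher level was thus already present at 3 h, and 6 h did not differ from it beyond counting error. The log2 ratio of 6 h to 3 h was -0.111 with TMM factors and -0.165 per kept barcode. With TMM factors the log2 ratios to the control were 0.197 at 3 h and 0.086 at 6 h. Against Oaz1 in the same library, Azin1 UMIs per 100 went from 5.0 to 6.64 at 3 h and 6.33 at 6 h. The log2 change of this ratio from 3 h to 6 h was -0.067 (-0.119 to -0.015). A gene on the other strand, Gm49077, overlaps Azin1 and is listed separately in the matrices.

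**Figure D2:**
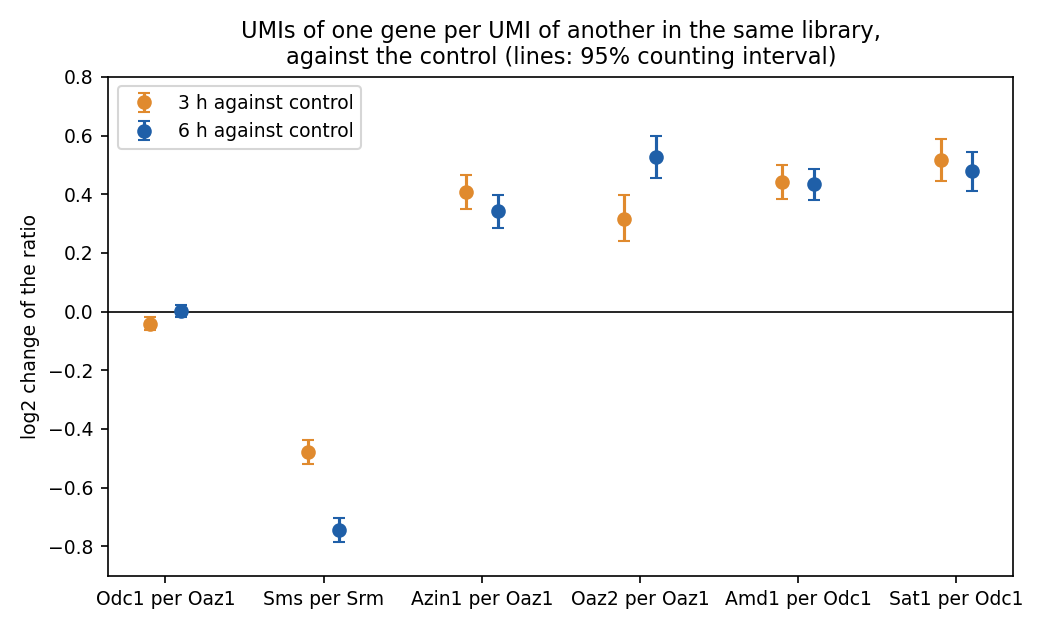
log2 change, against the control, of the UMIs of 1 gene per UMI of another in the same library, at 3 h (orange) and 6 h (blue), with 95% counting intervals. Odc1 per Oaz1 lies at 0.001 at 6 h, Sms per Srm reaches -0.74, and the other 4 ratios lie between 0.32 and 0.53.

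S-adenosylmethionine decarboxylase, the product of Amd1 (chromosome 10, 40287458 to 40302186, minus strand), makes the aminopropyl donor used by both synthases. Amd1 was read at 44.9, 57.8 and 61.8 CPM in the control, 3 h and 6 h libraries. The ratios were 1.29-fold at 3 h and 1.38-fold at 6 h. With TMM factors the log2 ratios to the control were 0.189 at 3 h and 0.179 at 6 h. The log2 ratio of 6 h to 3 h was 0.097, but -0.010 with TMM factors and -0.064 per kept barcode. Amd1 UMIs per 100 Odc1 UMIs were 10.1 in the control and 13.8 and 13.7 in the treated libraries, so the 2 decarboxylase transcripts moved apart by 3 h and kept that ratio at 6 h. The Amd1 value is uncertain because Amd2, on the same chromosome, has a coding sequence that differs at 1 of 1002 bases. With both genes summed the direction was the same. Amd2, at 2.05, 1.97 and 2.87 CPM in the same order, was too low to change it, so the sum does not settle the uncertainty.

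The 2 aminopropyl transferases differed from each other. Srm (chromosome 4, 148591503 to 148594993, plus strand) encodes spermidine synthase, and it was read at 208, 218 and 217 CPM. Its log2 ratios to the control were 0.07 and 0.06, and -0.11 and -0.23 with TMM factors. Sms (X chromosome, 157443855 to 157492287, minus strand) encodes spermine synthase, which turns spermidine into spermine. Sms had 19051, 13753 and 14899 UMIs in the control, 3 h and 6 h libraries, or 171, 129 and 106 CPM. The treated libraries were lower in the order of time.

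Sms was 1.33-fold lower than the control at 3 h (log2 -0.41, -0.44 to -0.38) and 1.61-fold lower at 6 h (log2 -0.69, -0.72 to -0.66). From 3 h to 6 h it was 1.21-fold lower. Few of the 7608 genes at or above 10 CPM had ratios as low: 5.30% were at or below Sms at 3 h and 5.65% at 6 h. Sms was below the control at both times under all 12 alternatives tried, from -0.58 to -0.14 on the log2 scale at 3 h and from -0.97 to -0.58 at 6 h. Per kept barcode, and in the barcodes below the median UMIs of their library, the 6 h value of -0.58 fell just short of 1.5-fold, and in the barcodes above the median it was -0.74. Within the libraries, Sms UMIs per 100 Srm UMIs were 82.1 in control cells and 58.9, then 49.0, with treatment, a log2 change of -0.48 and then -0.74. The coding sequences of these 2 synthases were 50.4% identical over all alignment columns, gaps included. No unrelated sequences were aligned for comparison.

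Of the 2 catabolic genes, Sat1 (X chromosome, 155213132 to 155216449, minus strand) encodes the spermidine/spermine acetyltransferase that marks polyamines for oxidation or export. Its levels in control, 3 h and 6 h cells were 26.8, 36.3 and 38.1 CPM. The ratio to the control was 1.36-fold at 3 h (log2 0.44, 0.37 to 0.51) and 1.42-fold at 6 h, and 6 h against 3 h was 1.05-fold. On the CPM scale most of the difference from the control was therefore in place by 3 h, as for Azin1 and Amd1. The Sat1 log2 ratio of 6 h to 3 h was -0.041 with TMM factors and -0.095 per kept barcode. Its log2 ratios to the control with TMM factors were 0.26 and 0.22, so the direction against the control did not depend on the scaling. How much of the difference from the control came from the form with the alternative exon shown above was not tested. Of the other genes higher in both treated libraries, Azin1 had 2 transcripts annotated for nonsense-mediated decay, and Oaz2 and Amd1 had 0. Sms, which was lower, had 1. Odc1, near its control level on the CPM scale, had 2, Smox had 3, and Oaz1 and Srm had 0. Over the 7492 protein-coding genes the median log2 ratio at 6 h was 0.216 with such a transcript and 0.145 without.

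Smox (chromosome 2, 131491496 to 131525922, plus strand) encodes spermine oxidase, which turns spermine back into spermidine. It was the 1 gene of the 9 under 10 CPM, with 510, 483 and 777 UMIs, or 4.58, 4.52 and 5.54 CPM. At 3 h the interval of its log2 ratio, -0.20 to 0.17, held 0. At 6 h the ratio was 1.21-fold (log2 0.28, 0.11 to 0.44), and it was -0.01 with TMM factors. The 3 h log2 ratio was -0.19 with TMM factors and 0.25 per kept barcode, so the sign for Smox depended on the scaling at both times.

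**Figure D3:**
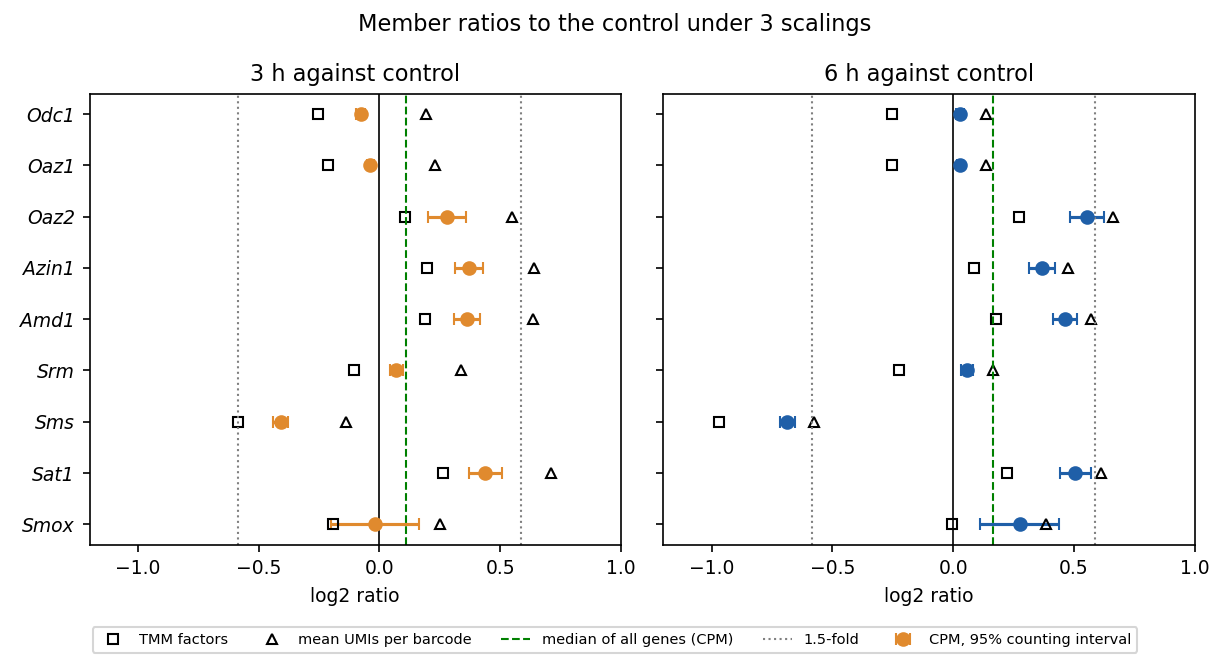
log2 ratio to the control of each gene at 3 h (left) and 6 h (right). Filled points are CPM ratios with 95% counting intervals, squares use TMM factors and triangles use mean UMIs per kept barcode. The dashed line is the median of all genes and the dotted lines mark 1.5-fold. Sms lies below 0 and Oaz2, Azin1, Amd1 and Sat1 above 0 under all 3 scalings. Odc1, Oaz1, Srm and Smox change side.

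The counts of the 9 genes past 1.5-fold were set beside the shares of all genes. Smox is counted among the 9 although it is under 10 CPM. None was at least 1.5-fold higher at 3 h or at 6 h, where 13.9% and 22.1% of the 7608 genes were. None was at least 1.5-fold lower at 3 h, where 2.13% were, and 1 of the 9, Sms, was at 6 h, where 7.79% were. Between 6 h and 3 h none passed in either direction, with 1.74% of genes higher and 2.52% lower. The median log2 ratio of the 9 was 0.07 at 3 h and 0.28 at 6 h, beside 0.11 and 0.17 for all genes at or above 10 CPM. Without Smox, which is under 10 CPM, the medians of the other 8 were 0.18 and 0.21. With TMM factors the medians of all genes were -0.06 and -0.12. Relative to the median of all genes, Sms was at -0.52 and -0.85, Odc1 at -0.19 and -0.14, and Oaz1 at -0.15 and -0.14. On the same scale Oaz2 was at 0.17 and 0.39, Sat1 at 0.33 and 0.34, Amd1 at 0.25 and 0.30, and Azin1 at 0.26 and 0.20.

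Genes outside the pathway showed the same pair of ratios. Within a distance of 0.1 in the plane of the 2 log2 ratios there were 519 other genes for Oaz1, 411 for Odc1 and 488 for Srm, of 5569 genes at or above 20 CPM. Sms had 82, the fewest of the 8 genes measured, and its 2 nearest were Nme4 (-0.42 and -0.70) and Macf1 (-0.39 and -0.71). The nearest to Odc1 were Impdh2 and Grsf1, to Oaz1 Bex1 and Lsm5, and to Srm Acads and Cndp2. Oaz2 lay beside Tmem9 and Zfand1, Azin1 beside Patz1 and Ddx42, Amd1 beside Top3b and Lrrc8d, and Sat1 beside Ccdc186 and Ppp2r2a.

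The wider pathway was read from a list of 29 genes for supply and salvage, transport, hypusination, regulation and relatives of the 9, of which 16 were at or above 10 CPM. At 3 h 1 of these 16 was at least 1.5-fold higher and 1 lower, and at 6 h 2 were higher and 3 lower, beside the 13.9% and 2.13% of all genes at 3 h and 22.1% and 7.79% at 6 h. The lowest ratio was that of Mat2a, which encodes the S-adenosylmethionine synthetase subunit that supplies the substrate of Amd1. Mat2a was at 288 CPM without cycloheximide, 116 CPM after 3 h of it and 36.1 CPM after 6 h, 2.48-fold and 7.96-fold lower. The supply enzyme's transcript was thus lower where that of the enzyme using its product, Amd1, was higher. Enoph1, of the salvage of the methylthioadenosine that both synthases release, was at 33.7, 47.4 and 59.8 CPM, and Mtap, which starts that salvage, at 35.7, 38.5 and 39.7 CPM.

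Spermidine is also the source of hypusine, the modified residue of the translation factor eIF5A. Dhps, the enzyme of the first hypusination step, was at 68.3, 104 and 119 CPM, or 1.53-fold and 1.74-fold higher than the control. Eif5a itself was at 1659, 1690 and 1641 CPM, with a sign that depended on the scaling. Dhps was higher under all 3 scalings, so it moved apart from the gene of its substrate protein.

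Myc and Mycn encode transcription factors for which Odc1 is a textbook target gene. Myc was at 35.8, 25.6 and 6.78 CPM in the control, 3 h and 6 h libraries, 5.28-fold lower at 6 h. Mycn was at 29.7, 29.8 and 10.8 CPM, 2.75-fold lower at 6 h. The Odc1 level stayed near its control value while Odc1 UMIs per 100 Myc UMIs went from 1236 in the control to 1639 at 3 h and 6652 at 6 h. These are transcript levels, and the MYC proteins were not measured.

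Variation between barcodes was examined after every barcode was thinned to 15000 UMIs, which left none out. Sms then averaged 2.55, 1.93 and 1.63 UMIs per barcode in the 3 libraries, control first. The share of barcodes with an Sms UMI was 88.9%, 79.8% and 75.1%, against 98.7%, 97.1% and 96.4% before thinning. The median was 2, 2 and 1 UMIs and the upper quartile 4, 3 and 2, while the lower quartile was 1 in every library. Most barcodes thus still held at least 1 Sms UMI. Whether all barcodes or only some of them had less Sms was not tested. Free RNA, read from barcodes with 10 to 100 UMIs, held Sms at 114, 117 and 81.1 CPM. No cell type that should lack these genes was present to set a background.

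**Figure D4:**
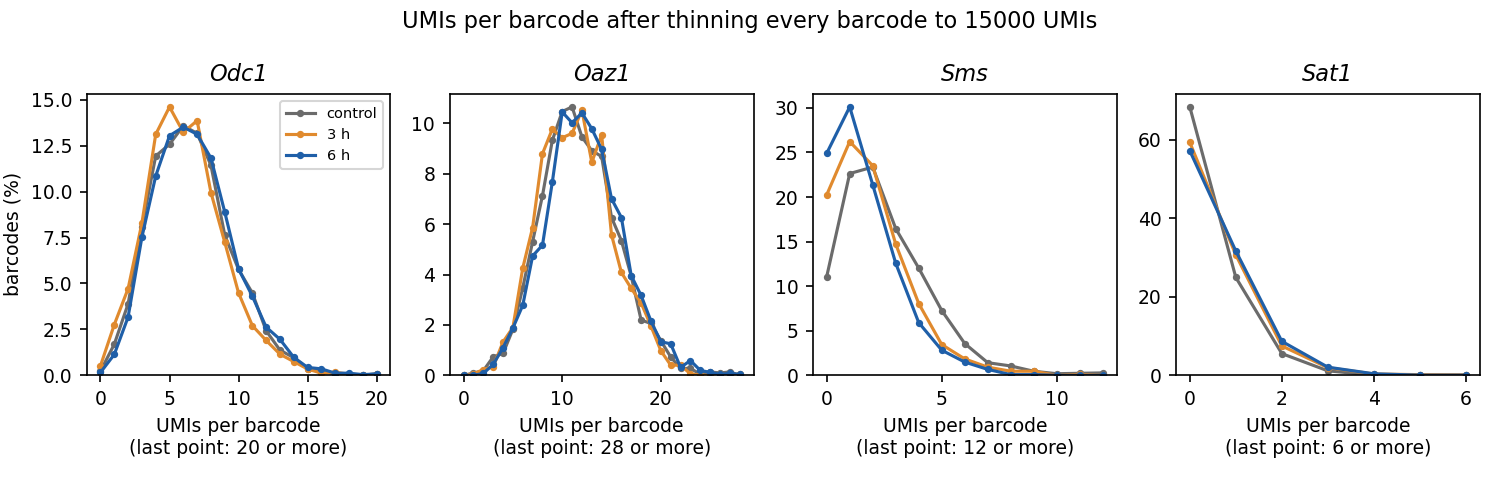
Percent of kept barcodes (vertical axis) by number of UMIs of Odc1, Oaz1, Sms and Sat1 (horizontal axis) after thinning to 15000 UMIs, for the control (grey), 3 h (orange) and 6 h (blue). The Odc1 and Oaz1 curves nearly coincide, the Sms curves shift toward 0 with time, and fewer treated barcodes than control barcodes lack a Sat1 UMI.

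The genes higher after treatment were found in more barcodes. After thinning, the share with a Sat1 UMI was 31.7% for control cells and 40.7% and 42.8% for treated cells (65.6%, 79.2% and 78.2% before thinning). For Oaz2 the shares were 27.4%, 33.8% and 39.2%, and for Amd1 48.6%, 58.4% and 60.5%. Azin1 was found in 43.3%, 51.5% and 54.0% of barcodes. Before thinning these shares were 63.2%, 75.7% and 77.3% for Oaz2, 84.5%, 92.3% and 91.9% for Amd1, and 80.1%, 88.9% and 88.6% for Azin1. Each gene's share was thus higher in both treated libraries, thinned or not. At so few UMIs per barcode a share largely follows the mean, so it is not evidence apart from the ratios. Before thinning the treated barcodes also held more UMIs, with medians of 51726 at 3 h and 46200 at 6 h against 43160 in the control. Free RNA held Sat1 at 34.7, 38.1 and 36.0 CPM and Amd1 at 37.0, 46.6 and 56.1 CPM, and its part in these shares was not tested. Odc1 was found in at least 99.5% and Oaz1 in 100% of barcodes of every library.

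Spread between barcodes beyond counting noise was given by the excess squared coefficient of variation, the variance minus the mean divided by the squared mean. It was 0.218, 0.247 and 0.232 for Sms in the control, 3 h and 6 h libraries, beside medians of 0.0768, 0.0800 and 0.0850 over all genes with at least 0.2 UMIs per barcode. Sms was therefore among the more variable genes of each library, at or above 82.5%, 84.9% and 82.3% of them. Oaz1 was at 0.0223, 0.0193 and 0.0200 and Odc1 at 0.0531, 0.0510 and 0.0420, both below the median. Srm, the other synthase, was at 0.0471, 0.0528 and 0.0559, so the 2 synthases also differed in spread. Sat1 was at 0.25, 0.317 and 0.143, at or above 85.9%, 89.7% and 67.6% of genes. Azin1 was at 0.0986, 0.335 and 0.118, and its 3 h value was at or above 90.6% of genes. With deeper thinning, which left out 147 to 211 barcodes per library, Sms was at 0.199, 0.240 and 0.172. Sat1 was then at 0.219, 0.224 and 0.206, so Sat1 was lowest at 6 h at both depths, by less at the deeper one. Azin1 at 3 h was then at 0.149.

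Correlation between the 9 genes across the barcodes of a library was weak. Over the 36 pairs, Pearson's r ranged from -0.06 to 0.06 in the control (2187 barcodes), from -0.07 to 0.08 at 3 h (1739) and from -0.05 to 0.07 at 6 h (2554). Odc1 with Srm gave the highest value in the control and at 3 h, and Odc1 with Sms at 6 h. With few UMIs per barcode, values this low are no finding.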

How the data were processed

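Single-cell 3′ libraries of 3 samples, 1 per group, were analysed. The authors deposited raw UMI counts per gene and barcode for the whole barcode list, made with Cell Ranger 4.0.0 on mm10, per the submitters' processing notes and the file headers; the annotation release is not given in the sources used here. The 9 genes and the gene lists were chosen with earlier results of these data known. Barcodes with at least 15000 UMIs and 1 to 20% mitochondrial UMIs were summed per library and scaled to CPM. Doublets were not removed and free RNA was not subtracted in the values reported. Totals over all barcodes were 127601369, 115188502 and 150987519 UMIs in the control, 3 h and 6 h libraries, and the kept barcodes held 87.3%, 92.8% and 92.9% of them. With at least 2500 UMIs per gene and library, except for Smox, counting intervals were narrow, but they say nothing of variation between cultures. UMIs remove amplification copies.

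log2 ratios used a prior of 0.5 counts, exact Poisson intervals were set on levels and exact conditional binomial intervals on ratios. A gene was called at 1.5-fold among genes whose 3 libraries averaged 10 CPM or more. Named were the 9 genes, listed pathway genes past 1.5-fold, Eif5a, Mtap, Myc and Mycn, and for each of the 9 averaging 20 CPM or more the 2 nearest genes by Euclidean distance over the log2 ratios at 3 h and 6 h. Barcodes were thinned without replacement to 15000 UMIs, or to 27500 UMIs as an alternative (random seed 1). The alternatives were other scalings (TMM from edgeR 4.0.16, and mean UMIs per barcode), UMI and mitochondrial limits, large barcodes left out, 10% free RNA subtracted, equal weight per barcode, another prior, floor and fold, and, chosen after seeing the data, barcodes below or above the median UMIs and Amd1 summed with Amd2. The calculations were tested on simulated data.

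Sequences, coordinates and decay annotation came from GENCODE release M21 (GRCm38, the same assembly as mm10), in which 32158 of the 32285 gene identifiers were found. Coding sequences were aligned end to end with Biopython 1.88. Python 3.11.15, numpy 2.4.6, scipy 1.17.1, pandas 2.3.3, matplotlib 3.10.9 and R 4.3.3 were used.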

Additional observations from a re-analysis of the deposited data

Results flagged for a closer look

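Odc1 and Oaz1 each had ratios to the control on opposite sides of 0 at the 2 times, below it at 3 h and above it at 6 h. The log2 ratio of 6 h to 3 h was 0.105 for Odc1 and 0.064 for Oaz1. No test of this difference could be made from 1 library a time, and so it was not tested; with TMM factors both genes lay below the control at both times, and per kept barcode above it at both times. The log2 ratio of 6 h to 3 h also changed sign, to -0.002 (TMM) and -0.056 (per barcode) for Odc1 and to -0.043 and -0.097 for Oaz1.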

How the results depend on the processing

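Sms stayed below the control, and Oaz2, Azin1, Amd1 and Sat1 above it, at both times under every alternative tried for them. With a lower fold (0.32 on the log2 scale) in place of 1.5-fold, 3 of the 9 genes were higher and 1 lower at 3 h, and 4 were higher at 6 h, where 29.5%, 8.33% and 37.9% of all genes were; with a fold of 2, 0 were lower at 6 h, where 2.41% of all genes were. TMM factors moved the median log2 ratio of the 9 to -0.105 at 3 h, -0.007 at 6 h and -0.041 for 6 h against 3 h. Per kept barcode, 3 genes (Azin1, Amd1 and Sat1) were at least 1.5-fold higher at 3 h (median 0.339), 2 (Oaz2 and Sat1) were higher and 0 lower at 6 h, and the median of 6 h against 3 h was -0.095. Without mitochondrial limits the median at 3 h was 0.026 and 1 gene was higher at 6 h. With 10% free RNA subtracted the median at 3 h was 0.105 and 1 gene was higher at 6 h. In barcodes below the median UMIs, a split chosen after seeing the data, 1 gene was higher and 0 lower at 6 h. The gene that crossed 1.5-fold at 6 h in the last 3 settings was Oaz2. The share of all genes higher or lower by 1.5-fold also moved with scaling: 11.7% and 16.7% at 6 h with TMM factors, 27.8% and 5.49% per barcode, and 8.60% and 5.23% or 30.1% and 0.775% at 3 h. Depth limited the ratios of Smox and the values per barcode: with deeper thinning 24 of 27 shares of barcodes with a UMI and 14 of 24 excess squared coefficients of variation moved, for example for Oaz2 in the control from 27.4% to 46.8% and from 0.109 to -0.0016. No paired analysis was possible because each group had 1 library.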

Other observations

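Free RNA, read from barcodes with 10 to 100 UMIs, did not hold the 9 genes in the same proportions as the kept barcodes. Azin1 was at 59.8, 89.0 and 80.9 CPM in free RNA of the control, 3 h and 6 h libraries (215, 294 and 317 UMIs), above its 40.2, 52.0 and 51.9 CPM in the kept barcodes of each library. Oaz1 went the other way, at 580, 493 and 635 CPM in free RNA against 804, 784 and 819 CPM. Odc1 was closer in the 2 fractions, at 435, 387 and 412 CPM in free RNA against 442, 419 and 451 CPM. Both fractions had more Azin1 in the treated libraries than in the control.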
